A study of Mus musculus with 36 samples.

Results

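Interferon-stimulated genes are the genes that cells switch on when they sense interferon or foreign nucleic acid, and 38 of them were followed here across all 20 RNA-seq libraries of a mouse study of TGFβ and the transcription factor gene Rreb1. The members were found by gene symbol, and all 38 were present in each of the 3 deposited tables, among 18758 genes for pancreatic organoids, 18256 for pancreatic ductal adenocarcinoma (PDA) cells and 19834 for embryonic stem (ES) cells and embryoid bodies. The list was selected on measured values of these same libraries, without a record of which comparison was used, so counts and medians over the members are descriptions. P-values are given for single genes, from fits over every gene of a table.

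Type I and type III interferons signal through receptor-bound kinases to the complex ISGF3, which holds STAT2 and IRF9 and binds the interferon-stimulated response element (ISRE) in the promoters of its target genes. Type II interferon acts mainly through the gamma-activated sequence (GAS). The products include sensors of foreign RNA, effectors that block viral replication, the ubiquitin-like protein ISG15 and its enzymes, and the peptide-processing machinery of MHC class I. Many of these genes are also kept at a low level without added interferon, and mouse ES cells are known for a weak interferon response.

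The libraries fell into 12 groups. CIY organoids, described in the labels as pancreatic epithelial cells, gave 1 library each of doxycycline (dox, 1 µg/mL from plating) with TGFβ, dox with SB505124, TGFβ without dox, and SB505124 without dox. KSIC_806 PDA cells, whose library titles also carry the mark S4, gave 2 libraries each of Rreb1 KO with TGFβ, WT with TGFβ, KO with SB505124 and WT with SB505124. E14 ES cells gave 2 libraries each of KO at day 4, WT at day 4, KO at day 0 and WT at day 0 of embryoid body culture. TGFβ was given at 100 pM for 1.5 h. SB505124, which blocks the kinase activity of type I TGFβ receptors, was given at 2.5 µM for 6 h, so agent and duration differ together in every such comparison.

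What dox induces in the organoids, what S4 stands for, how the KO lines were made and how many clones they represent are not given in the sources used here. The effect of the Rreb1 genotype and any other difference of the KO and WT lines can therefore not be told apart. Whether the 2 replicates of a group were grown separately is not in the labels, and a p-value then reflects only how far these libraries spread, which may be technical. These are bulk samples, in which fewer cells of a type and less RNA per cell cannot be told apart.

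Promoter sequence was available for 29 of the 38 genes (32 promoters, RefSeq, GRCm38.p6), each running from 250 bases before the transcript start to 50 after it. The ISRE core, GAAA and GAAA with any 2 bases between them, on either strand, was present in 13 of the 29 genes (44.8%), against 3.99% of all 27025 genes with a promoter entry. The GAS core TTCNNNGAA was present in 7 (24.1%), against 9.55% of all genes. The 9 windows with an ISRE core upstream of the start are shown because this is the element through which ISGF3 acts. Each is written on the strand of its gene, with the bases covered by a match in capitals (a match to the other strand reads as a pair of TTTC):

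Isg15, chr4:156200855-156200916, minus strand: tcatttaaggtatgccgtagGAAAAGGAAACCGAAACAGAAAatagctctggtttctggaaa

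Ifit1, chr19:34640765-34640833, plus strand: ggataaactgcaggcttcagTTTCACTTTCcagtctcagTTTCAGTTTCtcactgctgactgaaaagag

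Ifit3, chr19:34583353-34583436, plus strand: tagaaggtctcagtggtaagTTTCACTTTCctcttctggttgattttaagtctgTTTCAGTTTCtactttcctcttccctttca

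Oas1a, chr5:120907526-120907565, minus strand: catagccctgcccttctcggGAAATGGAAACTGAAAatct

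Oas3, chr5:120777705-120777754, minus strand: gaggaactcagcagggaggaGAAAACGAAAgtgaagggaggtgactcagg

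Rsad2, chr12:26456543-26456592, minus strand: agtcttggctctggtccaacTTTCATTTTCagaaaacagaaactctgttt

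Stat2, chr10:128270256-128270305, plus strand: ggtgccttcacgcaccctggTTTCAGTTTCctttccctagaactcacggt

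Cxcl10, chr5:92349073-92349122, minus strand: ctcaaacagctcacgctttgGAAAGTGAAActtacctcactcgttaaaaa

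Bst2, chr8:71537567-71537622, minus strand: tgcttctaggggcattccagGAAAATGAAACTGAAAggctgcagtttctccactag

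Isg15 held 3 overlapping cores, 66 to 78 bases before its start. Ifit1, Ifit3, Oas1a and Bst2 held 2 each, overlapping in Oas1a and Bst2 and apart in Ifit1 and Ifit3. The other 4 genes with a match, Ifih1, Ddx58, Eif2ak2 and Ifitm3, held theirs downstream of the start and are not printed. A match describes the letters and is not evidence of binding.

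The 38 genes lie on 14 chromosomes, and several stand beside each other. Psmb9, Tap1 and Psmb8, which make peptides for MHC class I or transport them, follow on chromosome 17 with gaps of 225 and 969 bases. Rsad2 and Cmpk2, a pair that also acts in one pathway of antiviral nucleotide synthesis, lie 12664 bases apart on chromosome 12. The Ifit genes form a cluster on chromosome 19, the Oas genes 2 clusters on chromosome 5, and Mx1 and Mx2 a pair on chromosome 16. On chromosome 16, Dtx3l and Parp9 overlap by 558 bases. The library kit named in the labels does not mark strand, so for the 13 members overlapped by another gene, reads of the partners cannot be told apart, and near-identical paralogs such as Oas1a and Oas1g may share reads.

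Depth, computed from whole reads recovered from the deposited normalized read counts, was 23914870 to 35808735 reads in the organoids and 19885697 to 29082712 in ES cells and embryoid bodies. It was 38728354 to 44504338 in 7 PDA libraries and 20410770 in KO SB505124 replicate 1. Rreb1 transcript was not low in libraries labelled KO, where it stood at 2886 and 2560 normalized reads in KO TGFβ and 2164 and 2195 in KO SB505124 PDA libraries, against 4293 and 4212 in WT TGFβ and 1458 and 1501 in WT SB505124. In ES cells and embryoid bodies it stood at 1920 and 1512 in KO day 4, 1482 and 1586 in WT day 4, 2642 and 2830 in KO day 0 and 1085 and 1019 in WT day 0. Which part of the transcript the targeting touches is not given, so this level does not check the labels. Of 8 epithelial markers, 8 reached a level of 10 in every organoid library and 7 in every PDA library, and all 7 pluripotency markers did so in ES cells and embryoid bodies.

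The 3 systems differed in the summed level of these genes. Since the tables were normalized separately, levels across them are given as recovered reads scaled to one library total (RPM). The 38 genes together took 1201 RPM in organoids with dox and TGFβ, 1814 with dox and SB505124, 4966 with TGFβ alone and 2042 with SB505124 alone. They took 465 and 490 in KO TGFβ PDA cells, 387 and 385 in WT TGFβ, 331 and 327 in KO SB505124 and 359 and 329 in WT SB505124. In embryoid bodies they took 557 and 518 at KO day 4 and 755 and 711 at WT day 4, and in ES cells 530 and 514 at KO day 0 and 652 and 644 at WT day 0. The 4 organoid libraries were all above the 16 others, and the organoid library with TGFβ and no dox was the highest of the 20. Single genes took a large part of these totals. In organoids without dox, Ifitm3 took 1353 RPM with TGFβ and 704 with SB505124. Trim25 took 117 and 118 in KO SB505124 PDA cells and 223 and 212 in WT day 0 ES cells.

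**Figure D1:**
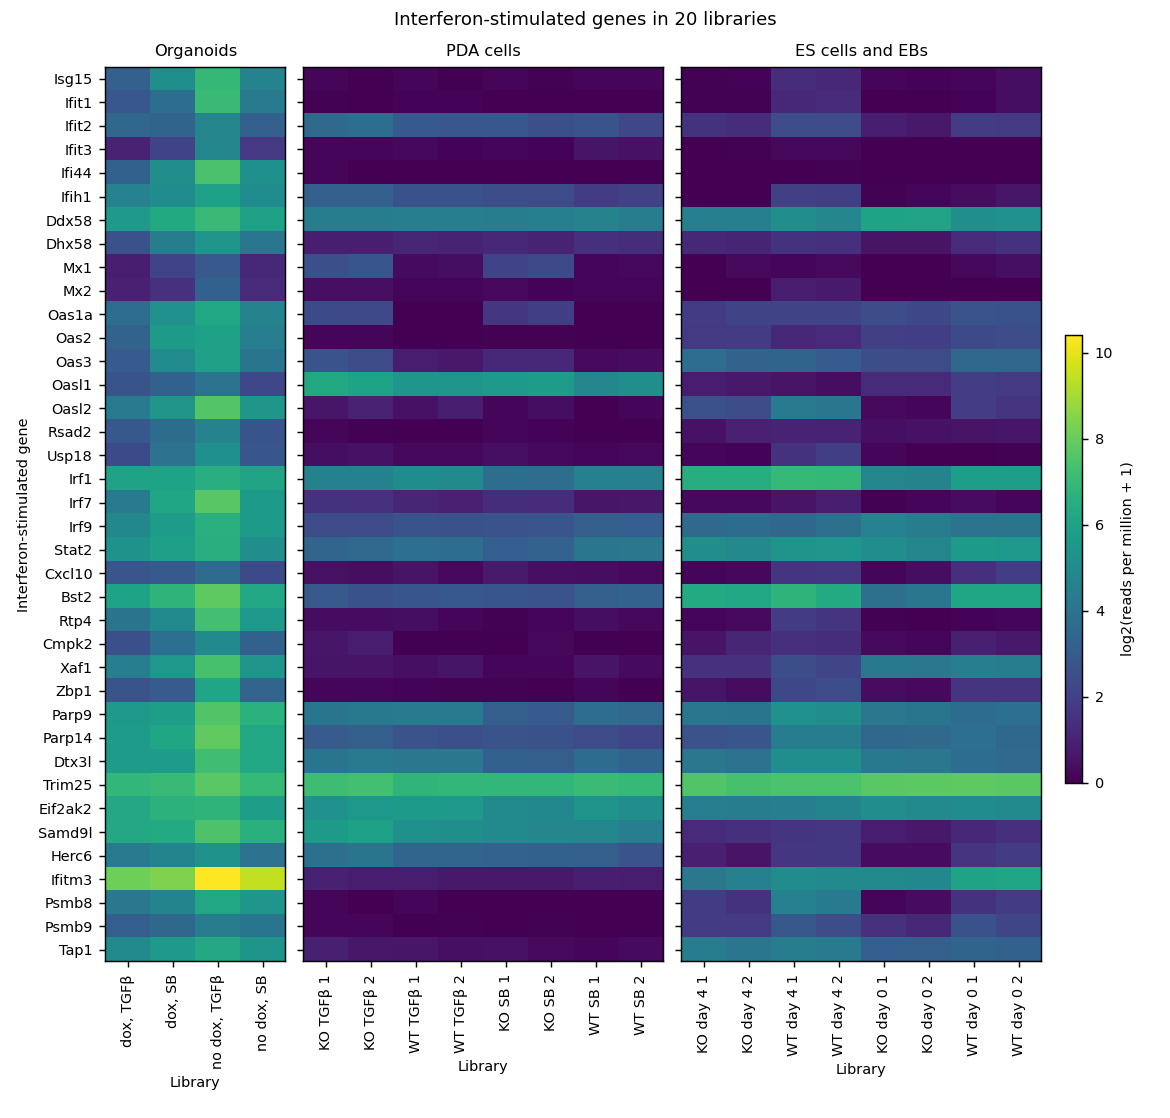
Heat map of log2(RPM + 1) for the 38 genes (rows) in the 20 libraries (columns; SB is SB505124). The organoid column for TGFβ without dox is the brightest of its panel for every gene. Isg15, Ifit1 and Ifi44 are near the bottom of the scale in all PDA columns.

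In the organoids, every one of the 38 genes was highest in the library that received TGFβ without dox. Over all 13443 genes with a mean of at least 10, 27.5% were highest in that library. At the other end, 30 of the 38 were lowest in the library with dox and TGFβ, against 21.9% of all genes. There is 1 library per condition, so nothing in this system has a replicate check. Intervals are 95% exact intervals that cover counting error only, and no test was made.

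Without dox, 26 of the 38 genes were higher past 2-fold with TGFβ than with SB505124, against 3.56% of all genes tested, and all 38 were higher at any size (49.6% of all genes were). The median log2 ratio was 1.59 for the members and −0.00 for all genes, and the members ranged from 0.31 (Psmb9) to 3.46 (Ifit3). None was lower, while 50.4% of all genes were lower at any size and 2.85% past 2-fold (6.41% were past 2-fold in either direction). With dox the same comparison went the other way, and 14 of the 38 were lower past 2-fold, against 3.24% of all genes. Here 36 were lower (53.3% of all genes were) and 2 higher, the median was −0.72, and the range ran from −2.47 (Oas2) to 0.10 (Ifit2). No member was higher past 2-fold, against 3.52% of all genes (6.75% were past 2-fold in either direction). Past 2-fold lower with dox and past 2-fold higher without it were 14 members, and 42 of all 13443 genes (0.312%).

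**Figure D2:**
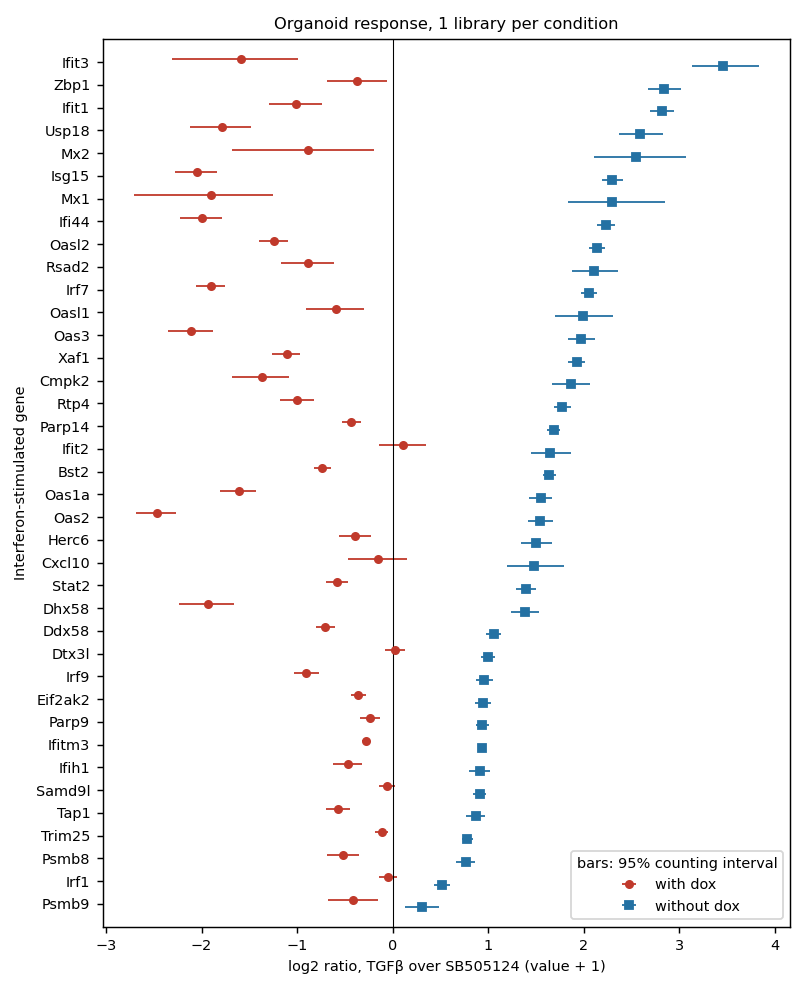
Log2 ratio of TGFβ over SB505124 (value + 1, horizontal axis) for each of the 38 genes in organoids with dox (circles) and without dox (squares). Bars are 95% counting intervals, with 1 library per condition. All squares lie right of 0, and all circles but those of Ifit2 and Dtx3l lie left of it.

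Comparing dox with no dox under TGFβ, 35 of the 38 genes were lower past 2-fold with dox, against 9.6% of all genes. All 38 were lower at any size, against 50.5% of all genes, and none was higher past 2-fold, against 7.84% (median −2.22, from −4.66 for Ifit3 to −0.55 for Eif2ak2). Under SB505124 all but 5 genes were within 2-fold of their level without dox. There, 4 genes were higher past 2-fold (7.93% of all genes were), 1 was lower (9.57% of all genes were), and the median was 0.15. The comparisons between dox and no dox and those between TGFβ and SB505124 reuse the same 4 libraries. The library with TGFβ and no dox stands apart, and both the comparison without dox and the comparison under TGFβ rest on it. The comparison of TGFβ with SB505124 in dox, with 14 genes lower past 2-fold, and that of dox with no dox under SB505124 do not use it.

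Among the effectors, Isg15, the ubiquitin-like modifier, had 223 normalized reads with dox and TGFβ, 928 with dox and SB505124, 3377 with TGFβ alone and 687 with SB505124 alone. The log2 ratio of TGFβ over SB505124 was −2.05 with dox and 2.30 without it. Ifit3, a member of the family that binds foreign RNA ends, had 28.3, 87.0, 740 and 66.5 in the same order of libraries. Ifit1 had 166, 336, 3764 and 534.

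Ifi44 followed with 226 with dox and TGFβ, 905 with dox and SB505124, 4820 with TGFβ alone and 1025 with SB505124 alone. Isg15, Ifit1, Ifit3 and Ifi44 were each 15.1-fold to 26.1-fold lower with dox than without it under TGFβ. Ifit2 stood out from its family, with 267, 248, 720 and 229, so that its level with dox was nearly equal under TGFβ and SB505124 (log2 ratio 0.10, interval including 0).

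The oligoadenylate synthetases, which make the activator of the antiviral nuclease RNase L, included the member with the lowest ratio of TGFβ over SB505124 in dox. Oas2 had 242 with dox and TGFβ, 1347 with dox and SB505124, 1720 with TGFβ alone and 591 with SB505124 alone. It was lower by 2.47 (log2) with TGFβ than with SB505124 in dox and higher by 1.54 without dox. Oas3 had 194, 839, 1727 and 440 in that order. Oas2 was also higher with dox than without it under SB505124 (log2 ratio 1.19), as were Mx1 (1.24), Usp18 (1.18) and Oasl1 (1.12), and these are the 4 genes past 2-fold there. The 1 gene past 2-fold in the other direction was Ifitm3, which restricts viral entry, at 8965 with dox and SB505124, against 20020 with SB505124 alone.

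Among the regulators, Irf7, the factor that amplifies the response, had 481 with dox and TGFβ, 1806 with dox and SB505124, 5895 with TGFβ alone and 1420 with SB505124 alone. Stat2 and Irf9, the ISGF3 partners, differed less. Stat2 had 1030, 1546, 2541 and 967 in the same order, and Irf9 had 749, 1403, 2756 and 1418. Irf1, which also answers type II interferon and NF-κB, had 1682, 1736, 2655 and 1861, with the smallest with-dox minus without-dox difference in response of all 38 genes (−0.56).

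The RNA sensor genes were graded. Dhx58 (LGP2) had 135 with dox and TGFβ, 518 with dox and SB505124, 1195 with TGFβ alone and 458 with SB505124 alone. Ddx58 (RIG-I) had 1275, 2079, 3616 and 1740, and Ifih1 (MDA5) 626, 869, 1722 and 916. Zbp1, a sensor of Z-form nucleic acid, had 147, 190, 1958 and 274, with the second largest log2 ratio without dox (2.83). Of the antigen-processing genes, Psmb9 had the smallest log2 ratio without dox of all 38 (0.31), with 206, 275, 547 and 442 in the same order, and Tap1 had 834, 1240, 2144 and 1173.

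Other genes of the pathway were read in the same libraries. Among 35 other interferon-stimulated genes, 19 were past 2-fold higher without dox and 13 past 2-fold lower with dox (TGFβ over SB505124). Of all genes, 3.56% and 3.24% were. Among 13 NF-κB targets none was past 2-fold higher and 1 lower without dox, against 3.56% and 2.85% of all genes. The type I receptor subunit Ifnar1 had log2 ratios of 0.32 with dox and 0.43 without.

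Interferon genes themselves were at the edge of detection. Ifnb1 stood at 3.15 normalized reads and Ifna2 at 2.10 in the library with TGFβ alone, and both were at 0 in the other 3 organoid libraries. Of 10 immune cell markers, 7 were in the table, and their summed level lay between 320 and 409 over the 4 libraries, with 2 to 3 of them at or above 10. Ptprc, the pan-leukocyte marker, was at 0 in 3 libraries and at 0.744 in the library with dox and SB505124. The part of other cell types and of depth in these results was not tested. Depth was 23914870 reads with dox and TGFβ, 35808735 with dox and SB505124, 26894870 with TGFβ alone and 32907500 with SB505124 alone.

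In ES cells and embryoid bodies most of the genes that differed between the genotypes were lower in KO, on both days. At day 4, 25 of 35 tested genes were called (56.2% of all genes were) and at day 0, 22 were (67.2% of all genes). At day 4, 22 of the 35 were lower in KO and 3 higher by limma (adjusted p under 0.05), against 28.4% and 27.8% of the 15227 genes tested. At day 0, 18 were lower and 4 higher, against 33.3% and 33.9% of all genes. The medians were −1.01 at day 4 and −1.0 at day 0 (log2), against −0.01 and −0.00 for all genes. Lower in KO on both days were 12 genes, which is 54.5% of those lower at day 4 and 66.7% of those lower at day 0. Of all genes lower at day 4, 46.8% were also lower at day 0. The 12 include Cxcl10, Ifih1 and Ifit1, which passed the filter described below only through WT libraries, so their agreement supports nothing. The comparisons of the 2 days share no library. Of the calls, 20 of 25 at day 4 and 18 of 22 at day 0 were kept under every other processing setting and without each library in turn. The calls of both days include genes that passed the filter only through WT libraries, so these counts are a description.

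Of the 38, 35 passed the filter of at least 10 normalized reads in at least 2 of 8 libraries, and 20 stood at 10 or more in all 8. Ifit3, Ifi44 and Mx1 did not pass, with no value above 8.48. Isg15, Ifit1, Ifih1, Mx2, Usp18, Irf7, Cxcl10 and Rtp4 passed only through WT libraries. These 8 therefore had to be lower in KO at day 4, and Cxcl10 also at day 0, so their count supports nothing. Among the 20 genes with a mean of at least 50, an alternative added after seeing the data, 12 were lower and 2 higher at day 4, against 27.9% and 31.7% of all genes with such a mean, and 9 were lower and 4 higher at day 0, against 33.3% and 37.9%. Their medians were −0.40 at day 4 and −0.39 at day 0.

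**Figure D3:**
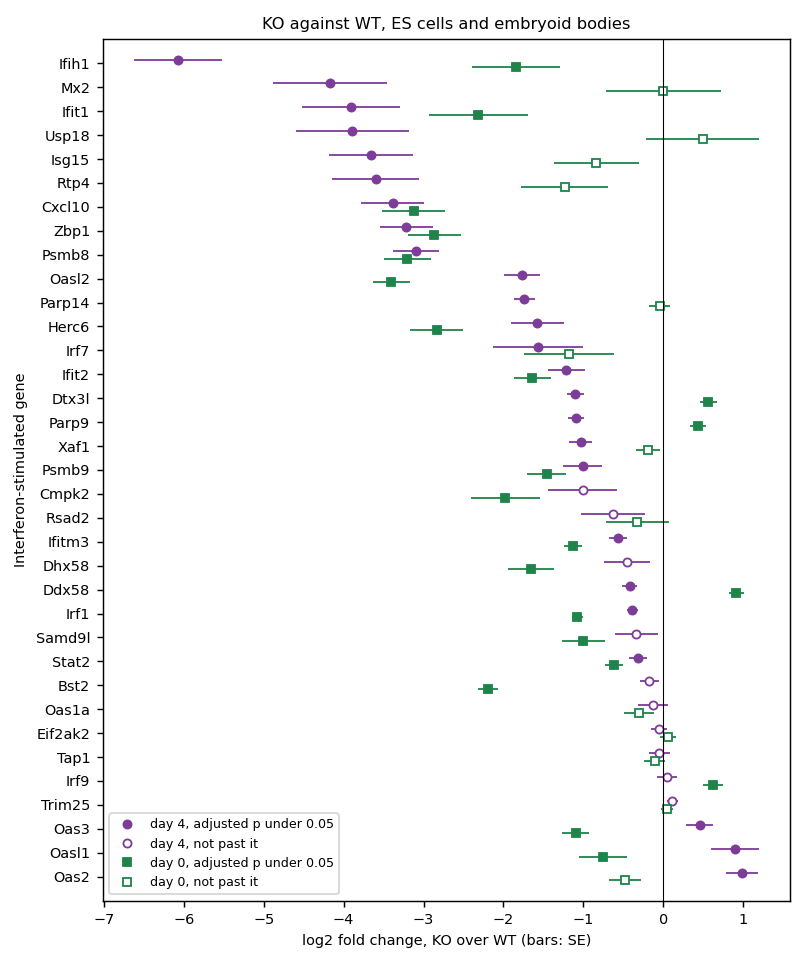
Log2 fold change of KO over WT (bars are SE, limma) for the 35 tested genes at day 4 (circles) and day 0 (squares). Filled symbols are past an adjusted p of 0.05. Most filled symbols lie left of 0 on both days, while Oas2, Oasl1 and Oas3 lie right of 0 at day 4.

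The antigen-processing gene Psmb8, an immunoproteasome subunit, was clear of overlap on both days. It had 64.5 and 46.3 normalized reads in KO day 4 libraries and 516 and 435 in WT day 4, and 3.39 and 6.69 in KO day 0 and 44.6 and 61.8 in WT day 0. KO was lower by a log2 difference of −3.09 ± 0.29 at day 4 (SE, limma adjusted p = 5.6e-07) and −3.20 ± 0.29 at day 0 (adjusted p = 2.74e-07). Its neighbour Tap1, the peptide transporter, was not called, with 497 and 390 in KO and 465 and 445 in WT at day 4 (−0.05 ± 0.13, adjusted p = 0.778). Psmb9, which lies 225 bases from Tap1, had 62.2 and 58.2 in KO and 141 and 105 in WT at day 4 (−1.01 ± 0.24, adjusted p = 0.00272, and 0.061 without WT day 4 replicate 1).

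Of the sensor genes, Ifih1 had 0 reads in both KO day 4 libraries, against 67.3 and 65.3 normalized reads (140 reads in all) in WT day 4. KO was at least 41.9-fold lower, taking 3 reads over the KO group as the limit that a count of 0 allows. At day 0 Ifih1 had 0.848 and 3.82 in KO and 6.95 and 13.3 in WT. Since it passed the filter through WT alone, its p is not given.

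Ddx58, the gene of the other main RNA sensor, differed in direction between the days. It had 524 and 521 in KO and 778 and 630 in WT at day 4 (−0.42 ± 0.10, adjusted p = 0.00196). At day 0 it was higher in KO, with 1608 and 1677, against 842 and 899 in WT (0.92 ± 0.10, adjusted p = 1.36e-06). Zbp1 had 12.4 and 6.9 in KO and 87.5 and 103 in WT at day 4, and 6.79 and 4.78 in KO and 48.6 and 47.2 in WT at day 0, and did not overlap on either day (−3.22 and −2.87).

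Among the effectors, Isg15 had 1.13 and 1.97 in KO and 33.6 and 28.0 in WT at day 4, a ratio of reads 19.5-fold lower in KO (counting interval 6.37 to 96.8). At day 0 it was near the floor in both genotypes, at 2.54 and 1.91 in KO and 2.98 and 7.27 in WT. Ifit1 had 1.13 and 0.986 in KO and 28.8 and 30.8 in WT at day 4, 28.3-fold lower in KO (7.52 to 239). Mx2 had no read in KO and 18.3 and 15.9 in WT at day 4, at least 10.8-fold lower in KO.

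Bst2, which tethers budding virus to the cell, had 2017 and 1817 in KO and 2502 and 1859 in WT at day 4, with no call by limma (−0.17 ± 0.12, adjusted p = 0.241). At day 0 it had 333 and 399 in KO and 1648 and 1687 in WT (−2.19 ± 0.12, adjusted p = 2.2e-09). Ifitm3 was lower in KO on both days, at 412 and 544 against 729 and 678 in WT at day 4 and 763 and 708 against 1552 and 1670 in WT at day 0 (−0.57 and −1.13). Oasl2 was lower on both days as well, with 124 and 111 in KO and 440 and 370 in WT at day 4 and 5.09 and 3.82 in KO and 65.5 and 48.4 in WT at day 0 (−1.77 and −3.40).

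**Figure D4:**
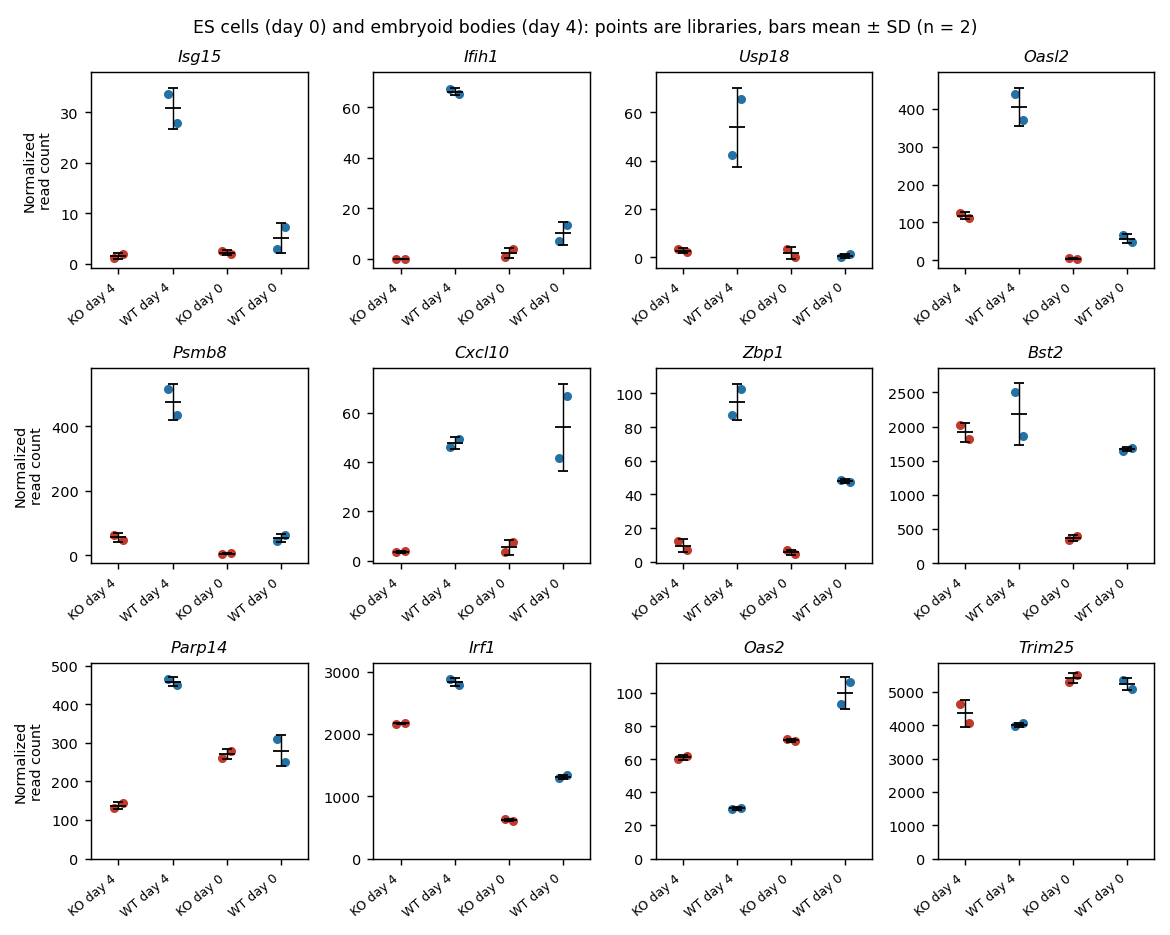
Normalized read counts of 12 members by library in KO day 4, WT day 4, KO day 0 and WT day 0 (2 libraries each; bars are mean ± SD). Isg15, Ifih1 and Usp18 reach 28.0 or more in WT day 4 libraries only, Cxcl10 and Zbp1 are lower in KO on both days, Bst2 is low in KO day 0, and Oas2 is higher in KO than in WT at day 4.

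Of the Oas family, 3 genes were called higher in KO at day 4, while Oas1a was not called (−0.12, adjusted p = 0.594) and Oasl2 was lower. Oas2 had 60.0 and 62.1 in KO and 29.8 and 30.8 in WT at day 4 (0.99 ± 0.20, adjusted p = 0.000793), and 72.1 and 70.8 in KO and 93.3 and 107 in WT at day 0 (−0.48 ± 0.20, adjusted p = 0.0501). Oas3 and Oasl1 were also called higher at day 4, by 0.46 and 0.90, and both calls were lost without KO day 4 replicate 1 or WT day 4 replicate 2 (adjusted p up to 0.315 and 0.0987). The Oas3 call was also lost without the filter, without either WT day 0 library and when library totals were made equal, and the Oasl1 call was lost with edgeR. These 3 are all the genes called higher in KO at day 4. At day 0 the 4 called higher were Ddx58, Irf9, Dtx3l and Parp9.

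Of the regulators, Irf1 was lower in KO on both days, with 2159 and 2179 in KO and 2881 and 2792 in WT at day 4 and 636 and 611 in KO and 1291 and 1340 in WT at day 0 (−0.39 and −1.08, adjusted p = 0.000257 and 9.24e-09). Stat2 was lower in KO on both days (−0.32 ± 0.11, adjusted p = 0.0266, at day 4 and −0.62 ± 0.11, adjusted p = 0.000225, at day 0), and its day 4 call was lost without either WT day 4 library or KO day 4 replicate 2 (adjusted p up to 0.226). Irf9 had no call at day 4 (0.05 ± 0.13, adjusted p = 0.747) and was higher in KO at day 0, with 583 and 512 against 353 and 357 in WT (0.62 ± 0.13, adjusted p = 0.000571). Irf7 stayed under 20 in every library, at 4.53 and 3.94 in KO and 10.6 and 19.6 in WT at day 4, and it passed the filter through WT alone.

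Cxcl10, a chemokine that attracts T cells, had 3.4 and 3.94 in KO and 46.1 and 49.4 in WT at day 4, and 3.39 and 7.65 in KO and 41.7 and 66.6 in WT at day 0. The KO libraries lay below the WT libraries on both days, but the gene passed the filter through WT alone and had to differ. Herc6, the ISG15 ligase gene of the mouse, had 21.5 and 11.8 in KO and 48.1 and 51.3 in WT at day 4, and 6.79 and 6.69 in KO and 47.6 and 61.8 in WT at day 0.

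Between the days the genes differed in both directions. At day 4 against day 0 in KO, 13 of the 35 were higher and 10 lower, against 29.1% and 30.9% of all genes (60% in either direction). In WT, 17 were higher and 9 lower, against 32.3% and 30.8% (63.1% in either direction). Isg15, Ifit1, Mx2, Usp18, Irf7 and Rtp4 passed the filter only through WT day 4 libraries. These 6 had to be higher there, so the WT count supports nothing by itself. Among the 20 members with a mean of at least 50, 9 were higher and 8 lower in WT. Of all genes with such a mean, 32.1% and 33.7% were. Higher at day 4 in both genotypes were Bst2, Ifit2, Irf1, Oasl2, Psmb8, Rtp4 and Tap1, and lower in both were Ddx58, Eif2ak2, Ifitm3, Irf9, Oas1a, Oasl1, Trim25 and Xaf1. Of all genes tested, 13% were higher and 13.7% lower in both. Xaf1 had 44.1 and 44.4 at day 4 and 436 and 428 at day 0 in KO, and 102 and 82.1 at day 4 and 500 and 487 at day 0 in WT (−3.26 and −2.42).

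Usp18, the ISG15 deconjugase and a brake on the type I receptor, had 3.4 and 1.97 at day 4 and 3.39 and 0 at day 0 in KO. In WT it had 42.3 and 65.3 at day 4 and 0 and 1.21 at day 0, 98.9-fold higher at day 4 (counting interval 17.4 to 3940, from 1 read at day 0). Rtp4, a chaperone of receptor transport, held no more than 4.93 in any KO library, against 58.6 and 46.6 at day 4 and 1.98 and 2.42 at day 0 in WT. Usp18 and Rtp4 passed the filter only through WT day 4 libraries, so the direction of their change in WT was fixed in advance.

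The change from day 0 to day 4 differed between KO and WT for 20 of the 35 genes (the interaction, KO response minus WT response), 9 higher in KO and 11 lower, against 27.1% and 28.6% of all genes (55.7% in either direction). The count includes Isg15, Ifih1, Mx2, Usp18 and Rtp4, which passed the filter through WT libraries alone. They had to be lower in KO at day 4, which favours a difference in response, so their part of the count supports nothing. Ifit1, Irf7 and Cxcl10 passed through WT alone as well and were not called here. Bst2 (2.02 ± 0.17, limma adjusted p = 3.33e-07) rose more in KO, where it started at 333 and 399. Parp14, Parp9 and Dtx3l differed by −1.70, −1.53 and −1.66. All of them were higher at day 4 than at day 0 in WT. In KO, Parp14 was lower at day 4, and Parp9 and Dtx3l did not rise clearly. Parp14 had 130 and 143 in KO and 466 and 450 in WT at day 4, and 261 and 279 in KO and 309 and 251 in WT at day 0.

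Genes around the pathway were measured alongside. Of 29 other interferon-stimulated genes tested, 17 were lower and 5 higher in KO at day 4, and 17 lower and 4 higher at day 0. Of 12 antigen presentation genes, 8 were lower and 2 higher at day 4, and 7 lower and 4 higher at day 0. Of all genes tested, 28.4% were lower and 27.8% higher at day 4, and 33.3% lower and 33.9% higher at day 0. Irf2, a repressor that shares the ISRE, had 2.26 and 5.91 in KO and 94.2 and 90.5 in WT at day 4. No interferon gene passed the filter.

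Markers of cell types differed between the genotypes beside these results. The summed level of 7 mesendoderm markers was 748 and 768 in KO day 4, with 4 of them at 10 or more, and 4115 and 7037 in WT day 4, with all 7 at 10 or more. The 6 fibroblast markers summed to 779 and 588 in KO day 4 and 2057 and 3116 in WT day 4, and the 7 pluripotency markers to 81471 and 85185 in KO day 4 and 46767 and 44616 in WT day 4. Immune markers, 8 of a list of 10, summed to 1331 and 1039 in KO day 4 and 822 and 620 in WT day 4, with Ptprc at 0 in KO and at 0 and 1.87 in WT. Their part in the day 4 results was not tested. At day 0, mesendoderm markers summed to 181 and 179 in KO and 147 and 182 in WT, fibroblast markers to 221 and 196 in KO and 562 and 529 in WT, and 5 endothelial markers to 6053 and 6194 in KO and 3396 and 3348 in WT. Their part in the day 0 results was not tested either.

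In the PDA cells most of these genes stood at low levels, and a few differed strongly between KO and WT. Of the 38, 30 passed the filter and 18 stood at 10 or more in all 8 libraries. Isg15, Ifit1, Ifi44, Oas2, Rsad2, Zbp1, Psmb8 and Psmb9 did not pass, with no value above 6.03. Mx2, Oas1a, Usp18 and Cmpk2 passed only through KO libraries and Ifit3 only through WT libraries. The first 4 therefore had to be higher in KO with TGFβ, and Oas1a also with SB505124. Ifit3 had to be lower in KO with SB505124. Calls of these 5 genes there support nothing. Usp18 was not called under either treatment (limma adjusted p = 0.0585 with TGFβ and 0.0909 with SB505124).

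With TGFβ, 13 of the 30 tested genes were higher in KO than in WT and 1 lower by limma, against 21.2% and 19% of the 13226 genes tested (40.2% in either direction), with medians of 0.52 and −0.02 (log2). With SB505124, 10 were higher and 6 lower, against 28.9% and 27.2% of all genes (56.2% in either direction), with medians of 0.24 and −0.00. The split under SB505124 was 7 higher and 8 lower after rescaling libraries to the same total, which moved the median of all genes by −0.15. Higher in KO under both treatments, which share no library, were Herc6, Ifih1, Irf7, Mx1, Oas1a, Oas3, Oasl1, Parp14 and Samd9l, which is 69.2% of the genes higher with TGFβ and 90% of those higher with SB505124. Of all genes higher with TGFβ, 72.6% were also higher with SB505124. Oas1a passed the filter only through KO libraries, so its agreement supports nothing. The calls of Herc6, Parp14 and Samd9l with SB505124 were each lost without WT SB505124 replicate 2 or KO SB505124 replicate 1 (adjusted p up to 0.104, 0.0687 and 0.15). Those of Herc6 and Samd9l were also lost without KO SB505124 replicate 2 and after rescaling, and that of Samd9l without either WT TGFβ library. With TGFβ the calls of Herc6, Irf7 and Parp14 were lost without WT TGFβ replicate 2, those of Herc6 and Parp14 without KO TGFβ replicate 2 and that of Herc6 without WT TGFβ replicate 1. The counts depended on single libraries, falling to 8 (TGFβ) without WT TGFβ replicate 2 and to 10 (SB505124) without KO SB505124 replicate 2.

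**Figure D5:**
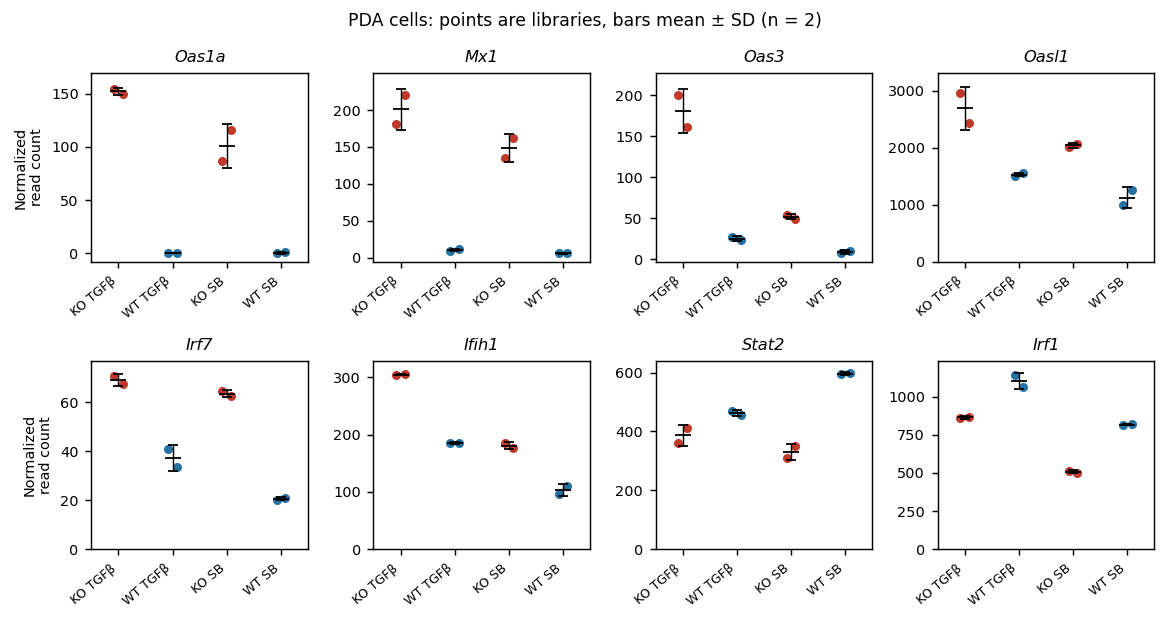
Normalized read counts of 8 members by library in KO TGFβ, WT TGFβ, KO SB505124 (SB) and WT SB505124 PDA cells (2 libraries each; bars are mean ± SD). Oas1a and Mx1 are at 86.5 or more in all KO libraries and at 11.1 or less in all WT libraries, and Stat2 and Irf1 are lower in KO.

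Oas1a, a synthetase gene, was close to absent from WT and present in KO. It had 154 and 150 normalized reads in KO TGFβ and no read in WT TGFβ, at least 117-fold higher in KO. With SB505124 it had 86.5 and 116 in KO and 0 and 0.912 in WT, a ratio of 233-fold (counting interval 41.2 to 9250, from 1 read in WT). Its near-identical neighbour Oas1g had 58.0 and 47.3 in KO TGFβ, 46.3 and 54.1 in KO SB505124 and 0 in all WT libraries, so that how reads divide between the pair is uncertain.

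Mx1, a dynamin-like GTPase that blocks influenza virus in mice, had 181 and 221 in KO TGFβ and 9.02 and 11.1 in WT TGFβ, and 135 and 162 in KO SB505124 and 5.51 and 6.38 in WT SB505124. The log2 fold changes were 4.19 ± 0.21 and 4.42 ± 0.21 (adjusted p = 5.6e-06 and 4.04e-06). Oas3 had 200 and 162 in KO TGFβ and 27.0 and 23.1 in WT TGFβ, and 54.3 and 49.6 in KO SB505124 and 7.34 and 10.0 in WT SB505124 (2.80 ± 0.22 and 2.46 ± 0.22). In each of the 3 genes the KO libraries lay above the WT libraries under both treatments.

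Irf7 had 70.7 and 67.3 in KO TGFβ and 41.0 and 33.3 in WT TGFβ (0.88 ± 0.18, adjusted p = 0.00639, and 0.0574 without WT TGFβ replicate 2). With SB505124 it had 64.4 and 62.4 in KO and 20.2 and 20.98 in WT (1.58 ± 0.18, adjusted p = 0.000255). Ifih1 had 304 and 305 in KO TGFβ and 184 and 186 in WT TGFβ (0.71 ± 0.12). Cmpk2 had 20.8 and 29.1 in KO TGFβ and 0.82 and 0.926 in WT TGFβ, 28.7-fold higher in KO (counting interval 7.58 to 243, from 2 reads in WT). Its limma call was lost without any of 3 libraries, WT TGFβ replicate 1, WT TGFβ replicate 2 or KO TGFβ replicate 2 (adjusted p up to 0.064).

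The core factors did not rise with them. Stat2 had 310 and 350 in KO SB505124 and 594 and 600 in WT SB505124 (−0.86 ± 0.11, adjusted p = 0.000365), and Irf1 had 515 and 501 in KO and 814 and 820 in WT (−0.68 ± 0.08, adjusted p = 0.000233). With TGFβ, Stat2 had 362 and 411 in KO and 469 and 455 in WT (−0.26 ± 0.11, adjusted p = 0.0894), and Irf1 858 and 870 in KO and 1142 and 1067 in WT (−0.35 ± 0.08, adjusted p = 0.00858, and 0.0922 without WT TGFβ replicate 1). Irf9 had 159 and 165 in KO TGFβ and 190 and 180 in WT TGFβ (−0.19 ± 0.11, adjusted p = 0.201). Bst2 and Ifitm3 had no call in either comparison.

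With TGFβ against SB505124 in KO, 13 of the 30 genes were higher and 1 lower, against 20.6% and 18% of all genes (38.7% in either direction), with a median of 0.52. In WT 10 were higher and 5 lower, against 19.4% and 17.6% (36.9% in either direction), with a median of 0.34. Oas3 rose in both, by 1.78 ± 0.22 in KO (adjusted p = 0.000762) and 1.44 ± 0.22 in WT (adjusted p = 0.00235). Ifih1 and Parp9 also rose in both. Irf1, Dtx3l and Samd9l were called higher in both, but in WT their calls were lost without WT TGFβ replicate 1, and those of Dtx3l and Samd9l without WT TGFβ replicate 2 (adjusted p up to 0.0577, 0.0824 and 0.0941). Oasl1 was called at 0.39 in KO (adjusted p = 0.0491) and 0.45 in WT (adjusted p = 0.0326), and each call was lost when any 1 of 5 libraries was left out, without the filter and, in KO, with edgeR. Irf9 was called lower in both, by −0.48 in KO, lost without KO SB505124 replicate 2 (adjusted p = 0.0662), and by −0.62 in WT. Of all genes tested, 9.41% were higher and 8.58% lower in both genotypes. In Parp9 the KO libraries held 595 and 669 with TGFβ and 322 and 287 with SB505124, and the WT libraries 667 and 646 with TGFβ and 453 and 397 with SB505124.

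These counts fell to 7 in KO without KO SB505124 replicate 2 and to 6 in WT without either WT TGFβ library. After rescaling to the same total the split was 11 higher and 3 lower in WT and 17 higher and 1 lower in KO. The response differed between the genotypes for 3 of the 30 genes, Ifit3, Stat2 and Trim25, all higher in KO, against 9.71% of all genes (21.8% in either direction). All 3 calls were lost without WT TGFβ replicate 1, WT TGFβ replicate 2, KO TGFβ replicate 2 or either KO SB505124 library, and that of Ifit3 without any library. The count of called genes was then 0 for the 3 TGFβ libraries and 1 for the KO SB505124 libraries, and it was 5 without WT SB505124 replicate 2. Comparisons within a genotype and between genotypes reuse the same libraries.

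Pathway genes around the members were read in PDA cells as well. Ifnlr1, a type III interferon receptor subunit, had 580 and 614 in KO TGFβ and 257 and 257 in WT TGFβ (1.21 ± 0.09, adjusted p = 3.85e-05). Ifngr1 was lower in KO under both treatments (−0.44 and −0.72). Of 29 other interferon-stimulated genes, 10 were higher and 6 lower in KO with TGFβ, against 21.2% and 19% of all genes. With SB505124, 7 were higher and 9 lower, against 28.9% and 27.2% of all genes. Sp100, a nuclear body gene, had 50.8 and 40.01 in KO TGFβ and 0 in both WT TGFβ libraries.

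The markers of other cell types were read beside the PDA results. Of 10 immune markers, 7 were in the table, and they summed to 147 and 133 in KO TGFβ, 142 and 137 in WT TGFβ, 183 and 141 in KO SB505124 and 144 and 161 in WT SB505124. Ptprc was at 32.6 and 17.3 in KO TGFβ, 7.38 and 9.26 in WT TGFβ, 18.1 and 17.4 in KO SB505124 and 11.9 and 9.12 in WT SB505124. Endothelial markers summed to 1008 and 932 in KO TGFβ, 61.5 and 56.5 in WT TGFβ, 1366 and 1332 in KO SB505124 and 45.9 and 52.0 in WT SB505124, with 1 of the 5 in the table at or above 10. Of the mesendoderm markers, 5 were in the table and 3 at or above 10, and they summed to 2808 and 2253 in KO TGFβ, 1016 and 953 in WT TGFβ, 8977 and 9760 in KO SB505124 and 3081 and 3304 in WT SB505124. Of these 3, Foxa2 and Sox17 were higher in KO under both treatments and Eomes was lower. Eomes had 0.382 and 0.360 RPM in KO TGFβ and 3.76 and 3.61 in WT TGFβ. Pluripotency markers summed to 4241 and 3601 in KO TGFβ, 1799 and 1736 in WT TGFβ, 6346 and 6519 in KO SB505124 and 1774 and 1918 in WT SB505124, and fibroblast markers to 285 and 309, 174 and 154, 119 and 108, and 77.1 and 48.3 in the same order. Of the 5 pluripotency markers in the table, 1 to 2 were at or above 10, and Klf4 made up nearly all of the sum. Klf4 had 154 and 159 RPM in KO SB505124 and 47.8 and 52.2 in WT SB505124. Pou5f1, Nanog, Zfp42 and Dppa5a held no more than 0.315 RPM in any PDA library. The part of these cell type markers in the results was not tested.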

How the data were processed

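RNA-seq libraries of the 3 systems were analysed (20 of the 36 samples of the series), and the other 16 were not analysed here. Per the labels' protocols, libraries were made from total RNA with a TruSeq kit. Bowtie2, HTSeq 0.6.1p1, HOMER, FastQC 0.11.5, DESeq2 3.4 and the build mm10 appear in the submitters' processing notes, without roles. The values the authors deposited are a signal, gene read counts divided by a size factor per library, normalized by the authors within each table. They stepped by whole multiples of 1 read (all values, tolerance 0.001), which gave back the reads and the depths. Members and lists were chosen with earlier results of these data known.

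For PDA cells and for ES cells with embryoid bodies, log2(value + 1) was fitted with limma 3.58.1 (R 4.3.3) over 8 libraries in 4 groups of 2, with Benjamini-Hochberg adjustment over every gene at 10 or more in at least 2 libraries, and a call at adjusted p under 0.05. Fold changes are on that scale, which understates changes of low genes. Organoids, with 1 library per condition, gave log2 ratios with 95% exact counting intervals. PCR reads carry no molecular identifiers, so intervals and limits from 3 counts cover counting error only. Both fits were tested on simulated data.

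The count test on recovered reads (edgeR 4.0.16, quasi-likelihood with TMM) was an alternative. It called 7325 genes for KO against WT under SB505124 and 5549 under TGFβ in PDA cells (limma 7428 and 5316), and 8638 at day 4 and 10158 at day 0 in the stem cell series (limma 8555 and 10232). Other alternatives were a pseudocount of 5, no filter, rescaling to the same total, quantile normalization, a replicate block and leaving out each library. All 38 members could be named. The rule took, in each replicated contrast, the 8 called genes with the largest change, a fixed set of members, receptor genes, and up to 3 genes of each other list by adjusted p, and in organoids the 6 largest ratios per contrast at 50 or more in the higher library. Genes outside it were chosen after their values were seen. A gene that the rule also takes is not reported here.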

Additional observations from a re-analysis of the deposited data

Results flagged for a closer look

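The response to TGFβ against SB505124 in PDA cells differed between KO and WT (KO response minus WT response, limma) for Ifit3 (2.15), Stat2 (0.598) and Trim25 (0.451). All 3 calls were lost under the replicate block and when any 1 of at least 5 libraries was left out, that of Ifit3 also with edgeR and without the filter, and Ifit3 passed the filter through WT libraries alone.

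In the stem cell series, the change at day 4 against day 0 differed between KO and WT by the same test for 20 of 35 members (57.1%). Of all genes tested there, 55.7% differed. The change was lower in KO for Usp18 (−4.38), Ifih1 (−4.23), Mx2 (−4.17), Isg15 (−2.82), Rtp4 (−2.37), Parp14 (−1.7), Dtx3l (−1.66), Parp9 (−1.53), Ddx58 (−1.34), Xaf1 (−0.84) and Irf9 (−0.568). Of these, Usp18, Ifih1, Mx2, Isg15 and Rtp4 passed the filter through WT libraries alone. They had to be lower in KO at day 4, which favours a difference in response. It was higher in KO for Bst2 (2.02), Oasl1 (1.65), Oasl2 (1.63), Oas3 (1.55), Oas2 (1.46), Herc6 (1.26), Dhx58 (1.2), Irf1 (0.689) and Ifitm3 (0.56).

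In organoids the log2 ratio of TGFβ over SB505124 was below 0 with dox and above 0 without dox for 15 named genes, a difference that was not tested because each condition has 1 library. The ratio with dox minus the ratio without it was −5.04 for Ifit3, −4.38 for Usp18, −4.35 for Isg15, −4.23 for Ifi44, −4.19 for Mx1, −4.08 for Oas3, −4.01 for Oas2 and −3.96 for Irf7. It was −3.83 for Ifit1, −3.43 for Mx2, −3.32 for Dhx58, −3.2 for Zbp1, −2.99 for Rsad2, −2.59 for Oasl1 and −1.21 for Ifitm3.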

How the results depend on the processing

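No gene named here reversed a called direction under the alternatives run. Replicate numbers gave no clear pairing of the libraries (correlations of same-numbered deviations −0.51 to 0.14 in PDA cells and −0.03 to 0.09 in the stem cell series). The −0.51, between WT SB505124 and KO TGFβ, means that replicates of these groups deviated in opposite numbering. The replicate block assumes a shared direction and does not take this up, and its source was not tested. The replicate block left 0 of the 3 genes called for the difference in response in PDA cells, and moved no other total by over 1.5 times. For TGFβ against SB505124 in WT it gave 9 higher and 2 lower, where the fit without it gave 10 and 5. Among members with a mean of at least 50, chosen after seeing the data, the counts were 14 (2 higher, 12 lower) at day 4 and 13 (4 and 9) at day 0 for KO against WT in the stem cell series, 17 (9 and 8, against 32.1% and 33.7% of all genes with such a mean) for day 4 against day 0 in WT and 12 (6 and 6, against 29% and 30%) for the difference in response. Leaving out each library gave 8 to 15 called genes for KO against WT under TGFβ, 10 to 17 under SB505124, 7 to 16 for TGFβ against SB505124 in KO, 6 to 14 in WT and 0 to 5 for the difference. In the stem cell series it gave 22 to 26 at day 4, 18 to 23 at day 0, 20 to 23 for time in KO, 20 to 28 in WT and 16 to 21 for the difference. Where an arm was left with 1 library, that library was assumed to vary like the other groups. Genes under about 10 normalized reads rest on few reads, and organoid ratios have no replicate check.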

Other observations

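Genes beside the members gave further values. In embryoid bodies Gbp2, a guanylate-binding GTPase, had 31.7 and 24.6 normalized reads in KO and 914 and 834 in WT at day 4, and 84.8 and 80.3 in KO and 391.9 and 466 in WT at day 0. Tlr3, the endosomal receptor of double-stranded RNA, had 2.26 and 6.90 in KO and 59.6 and 62.5 in WT at day 4. In PDA cells Apol9a had 68.9 and 48.2 in KO TGFβ, 50.0 and 59.2 in WT TGFβ, 4.02 and 4.59 in KO SB505124 and 5.51 and 6.38 in WT SB505124, so that the TGFβ libraries lay above the SB505124 libraries in both genotypes. Apol9b, of the same family, was close to absent from KO. It had 0.0478 and 0.0959 RPM in KO TGFβ, 4.31 and 4.34 in WT TGFβ, 0 and 0.0225 in KO SB505124 and 0.845 and 1.47 in WT SB505124. How reads divide between the pair was not tested. In organoids Sp100 had 32.8 with dox and TGFβ, 149 with dox and SB505124, 275 with TGFβ alone and 76.0 with SB505124 alone, in the same order of libraries as Isg15.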
